A study of Homo sapiens with 6 samples.

Results

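Type I interferon-stimulated effectors are the genes that carry out the antiviral state of a cell. The 49 genes described here were taken by symbol from the 47432 genes in the expression tables and were grouped into 11 families by what their proteins do. The rule picks genes by name, and the list was made with earlier results of these data known. The data are RNA-seq counts from LOX-IMVI, an established human melanoma line kept in RPMI-1640 medium with FCS. One group (shCtrl) carried a pLKO.1 lentiviral control vector and the other (shNFKBIZ) a pLKO.1 vector with 1 hairpin against NFKBIZ, the gene of the nuclear NF-κB co-factor IκBζ. All cells of both groups were transduced with lentivirus and selected with puromycin, and the labels name no added interferon. Each group had 3 libraries, which the study calls independent experiments. The comparison asks whether constitutive IκBζ affects the basal level of these genes.

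Type I interferons bind a receptor made of IFNAR1 and IFNAR2, whose kinases activate the factor ISGF3, of which STAT2 and IRF9 are a part. ISGF3 binds the interferon-stimulated response element (ISRE) in the promoters of a large set of genes. The effectors sense foreign RNA, cut or trap it, block entry and fusion of viruses, or attach ubiquitin-like and ADP-ribose marks to proteins. Many tumor lines express a part of this program without added interferon.

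The targeted gene was examined first. NFKBIZ stood at 41.4, 42.9 and 49.2 TPM (reads scaled to transcript length and library) in shCtrl and at 13.7, 14.1 and 13.3 TPM in shNFKBIZ cells, which was -1.78 on the log2 scale (standard error 0.0581, adjusted p = 7.2e-17). Libraries held between 22264473 and 24624839 exon reads. As checks of the cell type, MLANA, SOX10 and S100B had 0 reads in all libraries, and PMEL, TYR, DCT and TYRP1 had at most 11. MITF was the only one of 8 melanocyte lineage markers with more reads (135 to 165 in shCtrl and 76 to 94 in shNFKBIZ libraries), and 7 leukocyte and endothelial markers had at most 6 reads in any library. The line therefore expressed little of these lineage markers, and other markers of melanoma were not examined.

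Most of the interferon-stimulated effectors that could be tested were lower in shNFKBIZ cells. Of the 49 members, 41 passed the filter on low counts. A gene can pass this filter through its shCtrl reads alone, so counts over these 41 are a description. A call here means an adjusted p of at most 0.05 in the quasi-likelihood test of edgeR, and past the threshold means a call with at least a 2-fold change. In all, 17 members were past the threshold and lower, where 5.12% of all 13843 genes tested were. The study's own filter also asked for an absolute difference above 4, whose unit is not given. Taken as a difference in mean TPM, it left 9 members, and 555 of all 13843 genes in either direction. The share of all genes that were lower under this filter was not computed. None was past the threshold and higher, where 3.84% of all genes were. Over all genes, 42.9% of those past the threshold were higher, or 53.4% with library size alone as scaling, which left 15 members past it. A further 17 members were called lower with less than a 2-fold change, which makes 34 called lower of 41 against 32.8% of all genes. IFI44L, NMI and ADAR were called higher by less than 2-fold, 3 of 41 against 32.5% of all genes. HERC5, IFI44, DDX60L and TRIM22 were not called.

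The log2 fold changes of the tested members ran from -2.86 for IFIT1 to 0.55 for IFI44L, with a median of -0.85, where the median of all genes tested was 0.0043. In TMM-scaled CPM, the shNFKBIZ libraries lay wholly below the shCtrl libraries for 35 of the 41 members, against 34.6% of all genes, and wholly above them for 3, against 34.1%. The summed level of all 49 members was 1064, 1095 and 1105 TPM in shCtrl and 719, 722 and 715 TPM in shNFKBIZ cells, so that 66.1% of it was left. In bulk RNA, less RNA per cell and fewer cells that express a gene cannot be told apart.

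**Figure D1:**
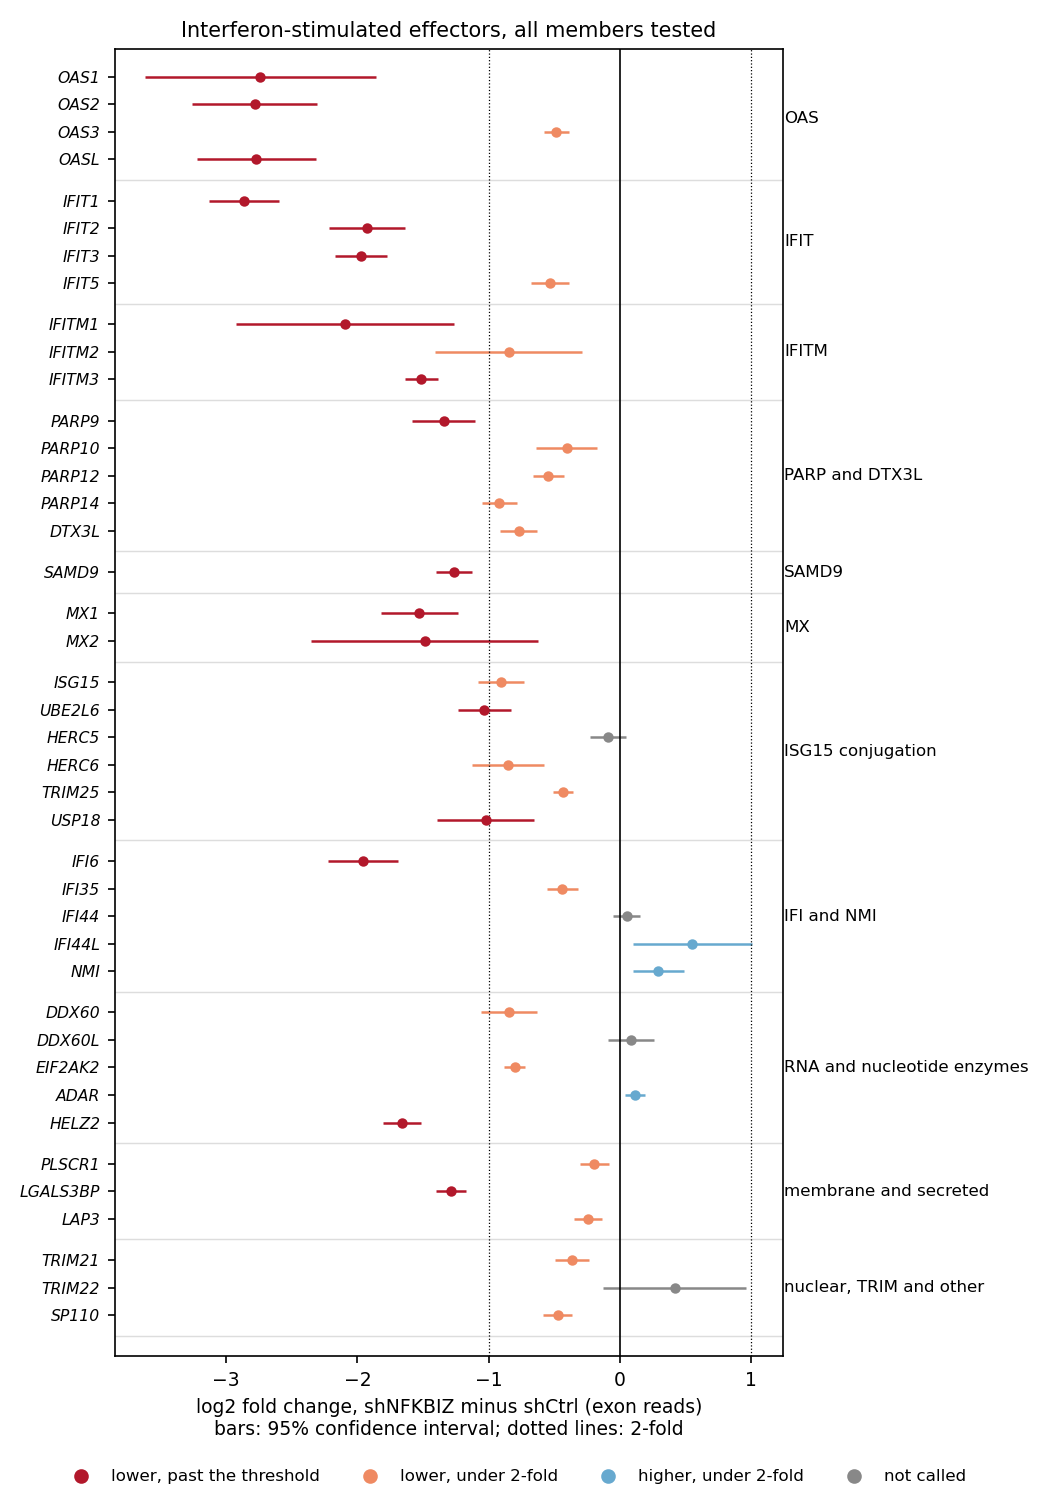
Log2 fold change (shNFKBIZ minus shCtrl, exon reads) of the 41 tested members by family; points are edgeR estimates and bars 95% confidence intervals. The OAS and IFIT families hold the largest falls, down to -2.86 for IFIT1, and IFI44L at 0.55 is the highest point.

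The promoter sequences show which of these genes have a match to the ISRE letters near an annotated start. RefSeq promoter windows of 300 bases (250 before to 50 after the start, build GRCh38.p14) were found for 41 of the 49 members and were searched on both strands for the ISRE letters GAAANNGAAA and the STAT dimer (GAS) letters TTCNNNGAA. Shown is the member with the largest fall, among those with a window, in the IFIT, IFITM, PARP and SAMD9 families and in the ISG15 system, 5′ to 3′ on the strand of the gene and before the annotated start. Where the stretch is part of an annotated exon, only 30 bases around the match are given. Capitals mark an ISRE match. The stretches are chr10:89392443-89392545 (plus) for IFIT1, chr11:313990-314019 (plus) for IFITM1, chr3:122564322-122564351 (minus) for PARP9, chr7:93118024-93118159 (minus) for SAMD9 and chr11:57567673-57567848 (minus) for UBE2L6.
IFIT1: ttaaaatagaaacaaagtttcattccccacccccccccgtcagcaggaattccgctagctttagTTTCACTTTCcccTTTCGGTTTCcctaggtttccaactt
IFITM1: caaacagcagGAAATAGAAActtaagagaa
PARP9: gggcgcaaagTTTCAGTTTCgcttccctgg
SAMD9: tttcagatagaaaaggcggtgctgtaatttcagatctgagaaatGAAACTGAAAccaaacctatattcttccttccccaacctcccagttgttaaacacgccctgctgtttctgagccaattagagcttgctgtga
UBE2L6: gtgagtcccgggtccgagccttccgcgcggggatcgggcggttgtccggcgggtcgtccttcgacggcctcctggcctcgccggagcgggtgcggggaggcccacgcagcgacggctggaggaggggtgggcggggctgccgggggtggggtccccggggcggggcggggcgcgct

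The IFIT1 stretch holds a pair of ISRE matches on the opposite strand, at -116 and -103 from the start. In IFITM1 the match shown is at -40, and a second ISRE match, which overlaps a GAS match, runs across the start. The match of PARP9 is the same 10 bases as that of DTX3L, its neighbor on the other strand, at chr3:122564332-122564341. UBE2L6 has no match to the letters of either motif in its windows.

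Of the OAS genes, OAS1, OAS2 and OASL fell by more than 6-fold, and OAS3 fell by less than 2-fold. OAS1, OAS2 and OAS3 are enzymes that make oligoadenylates when they bind double-stranded RNA and so switch on RNase L, and their genes lie side by side on chromosome 12. OASL has lost this activity and acts on RNA sensing. OAS2 (chromosome 12, 112978395 to 113011723) was measured at 1.03, 1.15 and 1.53 TPM in shCtrl and at 0.213, 0.186 and 0.165 TPM in shNFKBIZ cells. OASL was at 2.49, 3.20 and 2.17 TPM in shCtrl and at 0.378, 0.468 and 0.372 TPM in shNFKBIZ cells. The groups of both genes were far apart, with log2 fold changes of -2.78 (standard error 0.228, adjusted p = 5.08e-10) for OAS2 and -2.77 (standard error 0.217, adjusted p = 2.46e-10) for OASL. OAS1 had few reads, 24, 15 and 29 in shCtrl and 3, 2 and 5 in shNFKBIZ libraries. Its log2 fold change of -2.74 (standard error 0.422, adjusted p = 6.86e-06) therefore has a wide 95% interval, from -3.62 to -1.86.

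OAS3 is the most abundant member of the family and changed least. It stood at 16.4, 18.1 and 17.5 TPM in shCtrl and at 13.2, 13.1 and 13.1 TPM in shNFKBIZ cells. The groups did not overlap, and its log2 fold change was -0.49 (standard error 0.0452, adjusted p = 4.17e-09), with a 95% interval from -0.58 to -0.39 that lies outside those of the other 3 genes. Since OAS3 carries most of the family's RNA, the summed OAS level kept 64.0% of its shCtrl value. An antisense gene overlaps OAS1, OAS2 and OAS3 and had at most 2 exon reads in any library.

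All 4 IFIT genes were called lower, against 32.8% of all genes. Their proteins bind foreign RNA ends, IFIT1 those that lack cap methylation, with IFIT2 and IFIT3 as partners, and IFIT5 those with a triphosphate. IFIT1 (chromosome 10, 89392546 to 89406487) fell from 10.8, 9.64 and 10.8 TPM to 1.41, 1.28 and 1.82 TPM, and so lost most of its RNA in every library. Its log2 fold change of -2.86 (standard error 0.127, adjusted p = 1.52e-14) was a 7.28-fold decrease. IFIT2 was at 15.2, 14.6 and 14.5 TPM in shCtrl and at 5.05, 2.97 and 4.27 TPM in shNFKBIZ cells (log2 fold change -1.93, SE 0.134, adjusted p = 8.43e-09). For IFIT3 the values were 11.3, 11.1 and 11.5 TPM against 3.07, 2.95 and 3.12 TPM (log2 fold change -1.97, SE 0.0941, adjusted p = 5.2e-14).

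IFIT5 differed from its neighbors in the size of its change. It stood at 19.9, 18.9 and 21.3 TPM in shCtrl and at 15.4, 15.0 and 13.5 TPM in shNFKBIZ cells, again without overlap. The log2 fold change was -0.53 (standard error 0.0683, adjusted p = 5.33e-07), and its 95% interval of -0.68 to -0.39 does not meet those of IFIT1, IFIT2 and IFIT3. IFIT5, with the smallest change, also had the highest TPM of the 4 genes in both groups. IFIT5 has 3 ISRE matches in its window, at -45, -19 and -4. Strand was not used in the counting, and IFIT1, IFIT2 and IFIT3 lie within the bounds of LIPA on the other strand, whose own exon reads changed by -0.22 on the log2 scale.

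The IFITM proteins sit in cell membranes and block the fusion of enveloped viruses. IFITM3 (chromosome 11, 319676 to 329475) was the most abundant of all members, at 197, 224 and 195 TPM in shCtrl cells. It fell to 75.7, 75.2 and 77.3 TPM in shNFKBIZ cells, a log2 fold change of -1.51 (standard error 0.0587, adjusted p = 1.74e-11). This 2.85-fold decrease was the largest in absolute level among the families and brought the summed IFITM level down to 37.4%. IFITM1 was at 1.83, 1.68 and 1.56 TPM in shCtrl and at 0.205, 0.417 and 0.605 TPM in shNFKBIZ cells. The groups were apart, but the shNFKBIZ libraries held only 2, 4 and 6 reads, and the log2 fold change was -2.09 (standard error 0.398, adjusted p = 8.91e-05).

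IFITM2 was called with a wide error. Its values were 2.70, 4.75 and 3.02 TPM in shCtrl and 1.81, 2.38 and 1.99 TPM in shNFKBIZ cells, where the second shCtrl library stood above the others. The log2 fold change of -0.85 (standard error 0.269, adjusted p = 0.00867) became -0.55 and was no longer called without that library, and came just past 2-fold without the first shCtrl library. The IFITM genes resemble each other, and reads that map to several places were included. Unique reads made up 87.3% of the IFITM3 reads, 92.6% for IFITM2 and 60.9% for IFITM1. With unique reads alone IFITM3 changed by -1.53 and IFITM2 by -0.92, while IFITM1 had 11, 13 and 8 reads against 2, 2 and 3 and was not tested.

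**Figure D2:**
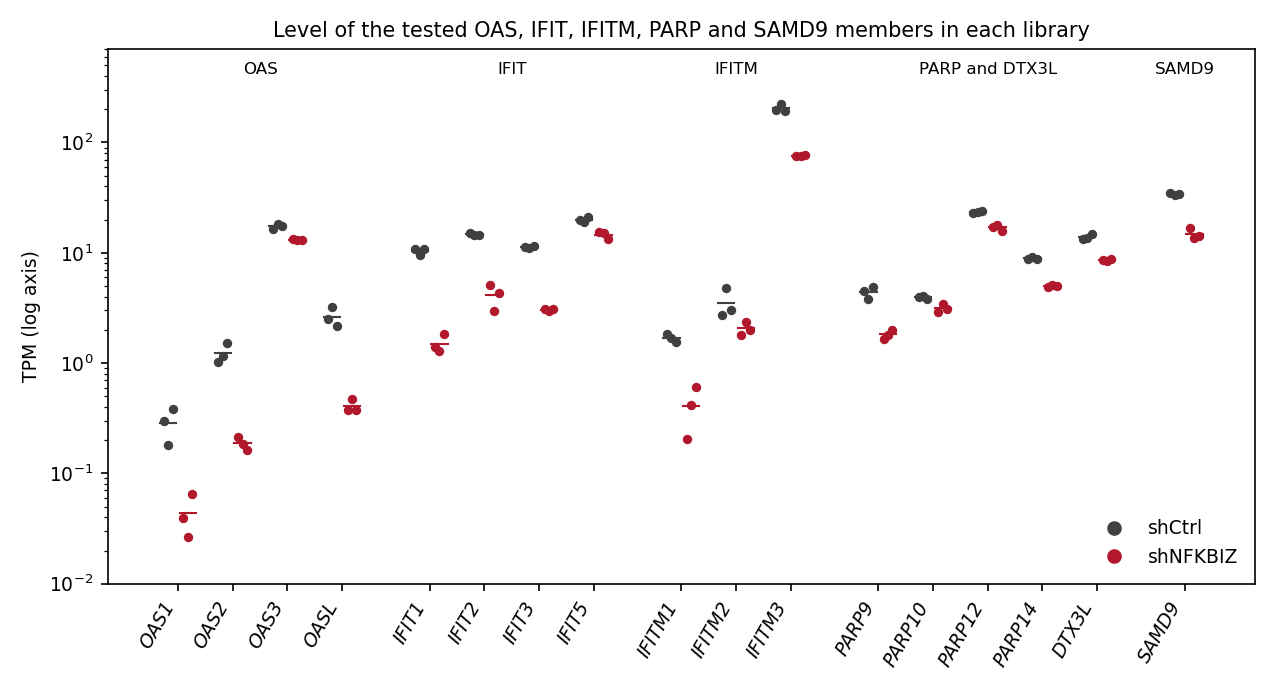
Level in TPM (log axis) of the 17 tested OAS, IFIT, IFITM, PARP and SAMD9 family members in each of the 3 shCtrl and 3 shNFKBIZ libraries; points are libraries and short lines group means. The shNFKBIZ points lie below the shCtrl points for each of these genes, with a wide gap for IFIT1 (-2.86 on the log2 scale) and a narrow gap for OAS3 (-0.49). In TMM-scaled CPM, the shNFKBIZ libraries lay wholly below the shCtrl libraries for 34.6% of all genes tested.

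PARP9, PARP10, PARP12 and PARP14 belong to the ADP-ribosyltransferases, and DTX3L is the ubiquitin ligase that works in a complex with PARP9. All 5 were called lower, against 32.8% of all genes, and PARP9 was past the threshold. PARP9 (chromosome 3, 122527924 to 122564577) was at 4.53, 3.78 and 4.89 TPM in shCtrl and at 1.66, 1.81 and 2.01 TPM in shNFKBIZ cells. The change was -1.34 on the log2 scale (standard error 0.115, adjusted p = 1.05e-09). DTX3L fell from 13.3, 13.8 and 14.8 TPM to 8.59, 8.47 and 8.83 TPM, a smaller log2 fold change of -0.77 (standard error 0.0693, adjusted p = 2.29e-09). The starts of PARP9 and DTX3L overlap head to head, so reads from the shared stretch cannot be told apart, and they share the ISRE match shown above.

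PARP14, a mono-ADP-ribosyltransferase on the same chromosome, was at 8.78, 9.10 and 8.84 TPM in shCtrl and at 4.89, 5.11 and 4.97 TPM in shNFKBIZ cells. Its log2 fold change of -0.92 (standard error 0.0657, adjusted p = 5.35e-11) was close to 2-fold. PARP12 was at 22.7, 23.4 and 23.9 TPM against 17.2, 18.0 and 15.7 TPM (log2 fold change -0.54, SE 0.0568, adjusted p = 2.5e-08). The smallest change of the family was that of PARP10, with 3.999, 4.02 and 3.82 TPM against 2.92, 3.43 and 3.12 TPM (log2 fold change -0.41, SE 0.113, adjusted p = 0.0033). None of these genes had overlapping groups. In TMM-scaled CPM, 34.6% of all genes tested lay wholly lower and 34.1% wholly higher.

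SAMD9 and SAMD9L are neighbors on chromosome 7 and encode large cytoplasmic proteins that restrict poxviruses and cell growth. SAMD9 (93099513 to 93118023) was well expressed, at 34.5, 33.1 and 34.0 TPM in shCtrl and at 16.9, 13.7 and 14.2 TPM in shNFKBIZ cells. SAMD9 changed by -1.26 on the log2 scale (standard error 0.066, adjusted p = 1.03e-11), a 2.40-fold decrease. SAMD9L was near the detection limit and was not tested, with 9, 7 and 8 reads in shCtrl and 5, 1 and 3 in shNFKBIZ libraries. Scaled to the library totals, the ratio of its summed reads was 0.395 (exact 95% interval 0.162 to 0.881, counting error only).

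Among the other members, 7 were past the threshold and all were lower, where 5.12% of all genes tested were. MX1 and MX2, the dynamin-like GTPases that trap viral nucleocapsids, were both at low levels. MX1 was at 1.10, 1.32 and 1.43 TPM against 0.465, 0.483 and 0.458 TPM (log2 fold change -1.53, SE 0.141, adjusted p = 3.56e-09). MX2 had 12, 14 and 19 reads in shCtrl and 4, 9 and 3 in shNFKBIZ libraries (log2 fold change -1.49, SE 0.416, adjusted p = 0.00352). IFI6, a protein of the endoplasmic reticulum that hinders flavivirus replication, had the largest fall of the tested members outside the OAS, IFIT and IFITM families. It was at 39.9, 41.4 and 44.6 TPM in shCtrl and at 14.0, 10.96 and 9.16 TPM in shNFKBIZ cells (log2 fold change -1.96, SE 0.128, adjusted p = 1.17e-11).

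HELZ2, a helicase and nuclear co-activator, was at 19.98, 23.96 and 23.02 TPM in shCtrl and at 7.43, 8.08 and 6.92 TPM in shNFKBIZ cells. Its groups were well apart, with a log2 fold change of -1.66 (standard error 0.0675, adjusted p = 7.89e-13). LGALS3BP, a secreted glycoprotein that binds galectins, had 1266, 1287 and 1144 reads in shCtrl and 491, 492 and 543 in shNFKBIZ libraries. The log2 fold change of LGALS3BP was -1.29 (standard error 0.0546, adjusted p = 6.73e-15), with a spread between replicates that was small beside the gap.

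In the ISG15 system, 5 of 6 members were called lower, against 32.8% of all genes. ISG15, the ubiquitin-like modifier itself, was at 64.9, 64.1 and 63.8 TPM in shCtrl and at 38.4, 35.1 and 35.3 TPM in shNFKBIZ cells (log2 fold change -0.91, SE 0.0837, adjusted p = 3.61e-09). UBE2L6, the enzyme that conveys ISG15 to its ligases, was at 20.1, 18.6 and 19.4 TPM against 9.94, 10.5 and 9.70 TPM (log2 fold change -1.03, SE 0.0961, adjusted p = 4.13e-09). USP18 removes ISG15 and restrains the receptor, and was at 2.79, 3.27 and 3.09 TPM against 1.38, 1.87 and 1.52 TPM (log2 fold change -1.02, SE 0.178, adjusted p = 3.13e-05). Both UBE2L6 and USP18 sat at the 2-fold limit, and with library size alone as scaling they changed by -0.94 and -0.93. USP18 was also under 2-fold without the second shCtrl library (-0.96) and without the first shNFKBIZ library (-0.94), and 56.7% of its reads were unique.

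The ligases of the system did not change alike. HERC5, the main ligase for ISG15, was at 17.4, 15.7 and 16.4 TPM in shCtrl and at 15.7, 17.1 and 16.3 TPM in shNFKBIZ cells, and the groups overlapped in TPM. In TMM-scaled CPM they did not, so HERC5 is among the 35 members counted above as wholly below shCtrl. The log2 fold change of HERC5 was -0.09 (95% interval -0.23 to 0.04, adjusted p = 0.221). Its neighbor HERC6 fell from 3.62, 4.01 and 4.14 TPM to 2.57, 2.02 and 2.30 TPM, with a log2 fold change of -0.85 (95% interval -1.12 to -0.58, adjusted p = 6.6e-06). TRIM25, a ubiquitin ligase for the RNA sensor RIG-I that can also transfer ISG15, changed by -0.44 (standard error 0.0369).

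The other members called lower changed by less than 2-fold. EIF2AK2, the RNA-dependent kinase PKR that halts translation, fell from 41.4, 41.8 and 42.0 TPM to 25.1, 25.6 and 25.2 TPM (log2 fold change -0.80, SE 0.038, adjusted p = 4.58e-14). DDX60, a helicase of RNA sensing, changed by -0.85, SP110 and TRIM21 by -0.48 and -0.36, and IFI35 by -0.44. LAP3, an aminopeptidase, was lower by a small amount (-0.24). PLSCR1, a phospholipid scramblase, changed by -0.20, and with library size alone it was no longer called (-0.11).

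IFI44 was among the most abundant members and did not fall. It was at 87.4, 84.3 and 95.4 TPM in shCtrl and at 92.8, 101 and 98.6 TPM in shNFKBIZ cells, and the groups overlapped. The log2 fold change of IFI44 was 0.05 (95% interval -0.05 to 0.15, adjusted p = 0.39), and with library size alone it was called higher (0.14). ADAR, which edits adenosine in double-stranded RNA and so restrains its sensing, was at 73.4, 80.0 and 79.1 TPM against 87.3, 91.1 and 88.4 TPM (log2 fold change 0.12, SE 0.0359, adjusted p = 0.00748). NMI, the partner protein of IFI35, was at 9.62, 8.83 and 8.38 TPM against 12.0, 11.9 and 10.9 TPM (log2 fold change 0.29, SE 0.0952, adjusted p = 0.0102). IFI44L, the neighbor of IFI44, was low, with 34, 27 and 30 reads against 35, 46 and 54 (log2 fold change 0.55, SE 0.219, adjusted p = 0.0319).

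The 8 members that were not tested had few reads or none. RSAD2 (viperin) had 8 reads in the shCtrl libraries together and 1 in the shNFKBIZ libraries, a scaled ratio of 0.132 (exact 95% interval 0.00297 to 0.983). BST2 (tetherin) had 10 and 2 reads, a ratio of 0.211 (0.0225 to 0.989), of which 7 came from the second shCtrl library. For IFI27, with 19 and 9 reads, the ratio was 0.499 (0.199 to 1.16), and for CMPK2, the head-to-head neighbor of RSAD2, it was 1.58 (18 and 27 reads, 0.839 to 3.05), so that no difference was detectable for these genes at this depth. XAF1 had 3 and 0 reads. RTP4 and EPSTI1 had 0 reads in all 6 libraries, which allows up to 0.348 TPM for RTP4 and 0.106 TPM for EPSTI1 at 3 reads per library.

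Reads in introns come mostly from unspliced RNA and were compared next. They were sparse, with 1812526 to 1975528 intron reads per library, and 23 of the 49 members could be tested. Intron reads were 7.16%, 7.33% and 7.46% of gene reads in shCtrl and 7.63%, 8.15% and 7.75% in shNFKBIZ libraries, and the part of this shift in the values below was not tested. PARP9, PARP12 and IFI6 were past the threshold and lower, 3 of 23 members against 3.89% of the 12119 genes tested. In all, 12 of 23 were called lower, against 19.5% of all genes, and none was called higher, while 11 were not called.

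PARP9 had 31, 36 and 48 intron reads in shCtrl and 10 in each shNFKBIZ library (log2 fold change -2.02, SE 0.277, adjusted p = 2.39e-07). IFI6 had 21, 24 and 45 intron reads against 6, 6 and 2 (log2 fold change -2.74, SE 0.392, adjusted p = 7.04e-07). The groups of both were far apart. PARP12 had 279, 296 and 269 intron reads against 140, 172 and 125 (log2 fold change -1.04, SE 0.0952, adjusted p = 2.17e-11), which was -0.95 and so under 2-fold without the third shNFKBIZ library. Among the calls under 2-fold were DTX3L (-0.94), LGALS3BP (-0.90), HERC6 (-0.80), IFI35 (-0.79), TRIM25 (-0.65), PARP14 (-0.59) and EIF2AK2 (-0.56). The calls of DTX3L, LGALS3BP and IFI35 rest on few reads. DTX3L passed 2-fold without the second shCtrl library (-1.08) or the first shNFKBIZ library (-1.07). It was not called when any of the other libraries was left out. LGALS3BP passed 2-fold without the first shCtrl (-1.08) or the third shNFKBIZ library (-1.11), and was not called without any of the others. IFI35 passed 2-fold without the second shNFKBIZ library (-1.10) and was called under 2-fold without the second shCtrl library (-0.95). Without any of the others IFI35 was not called.

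The OAS, IFIT and IFITM genes had few intron reads and were mostly below the limit for a test. Of these 11 genes only OAS3 had enough intron reads, and it was not called, with 59, 68 and 67 reads against 68, 58 and 58 (log2 fold change -0.17, 95% interval -0.48 to 0.15). IFIT3 had 11, 5 and 9 intron reads in shCtrl and 0, 0 and 2 in shNFKBIZ libraries, a scaled ratio of 0.0782 (exact 95% interval 0.00898 to 0.314). IFIT1 had 19 summed intron reads against 3, a ratio of 0.154 (0.0293 to 0.524), and OASL 16 against 4, a ratio of 0.244 (0.0595 to 0.758). MX1 had 9, 18 and 15 intron reads against 3, 6 and 1, a ratio of 0.233 (0.104 to 0.471). MX1 passed the filter for the test only when a library was left out, and its change was then between -1.70 and -2.79 in the fits that held it. The exact intervals, which cover counting error only, lay below 1 for these 4 genes and for IFITM3, MX2 and UBE2L6, 7 of the 26 members not tested in introns. The interval of IFITM3 reached 0.986. No share over all genes of low count was computed beside this number, so it is a description and not a result about the members. For 16 others the interval included 1, among them IFIT2 with 12 and 7 reads (ratio 0.570, 0.190 to 1.57), IFITM1 with 15 and 7 (0.456, 0.157 to 1.19), IFIT5 with 6 and 1 (0.163, 0.00354 to 1.34), OAS2 with 5 and 4, SAMD9 with 10 and 7 and USP18 with 20 and 20.

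The change in exon reads was then set against the change in intron reads within the same model. Of the 23 members, HELZ2 alone had a difference past the threshold of 1 on the log2 scale, against 2.67% of the 11025 genes tested. Its exon reads fell by 1.66 on the log2 scale, while its intron reads, 32, 30 and 13 against 19, 26 and 11, had overlapping groups and changed by -0.51 (adjusted p = 0.189). The difference was -1.13 (standard error 0.287, adjusted p = 0.00134). It was -0.83 without the third shCtrl library, and -0.90 and not called without the second shNFKBIZ library. LAP3 (difference -0.61), PARP12 (0.51) and DDX60L (0.41) had smaller differences that were called, which makes 4 of 23 against 28.9% of all genes. DDX60L overlaps PALLD on the other strand.

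**Figure D3:**
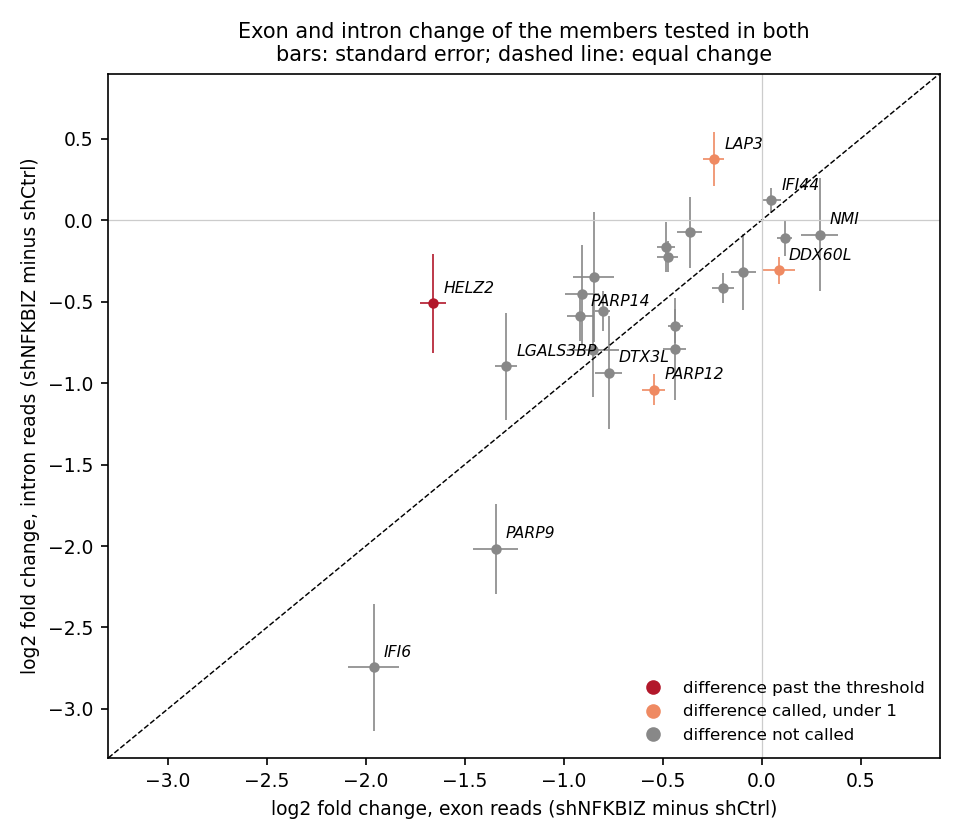
Log2 fold change (shNFKBIZ minus shCtrl) of exon reads (horizontal axis) and intron reads (vertical axis) for the 23 members tested in both; bars are standard errors and the dashed line marks equal change. HELZ2 lies above the line (exon -1.66, intron -0.51), and PARP9 (-1.34, -2.02) and IFI6 (-1.96, -2.74) lie below it without a called difference.

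Next, the genes that make and relay interferon were examined with a list of 28 genes, of which 23 were tested. In this list 6 of the 23 genes were past the threshold and lower, against the 5.12% of all genes, and none was higher. Another 8 were called lower by less than 2-fold, which makes 14 called lower of 23 against 32.8% of all genes. A further 2 were called higher, against 32.5%, and 7 were not called. Both receptor genes were called lower by less than 2-fold. IFNAR1 was at 28.4, 27.8 and 29.5 TPM against 22.7, 21.1 and 21.7 TPM (log2 fold change -0.47, SE 0.041, adjusted p = 1.65e-09), and IFNAR2 at 10.1, 9.48 and 9.62 TPM against 7.93, 8.97 and 8.74 TPM (log2 fold change -0.27, SE 0.0566, adjusted p = 0.000254).

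STAT2 and IRF9, which form part of ISGF3, differed in their change. STAT2 was at 26.7, 28.9 and 28.8 TPM against 28.6, 33.1 and 28.9 TPM, with overlapping groups and a log2 fold change of 0.02 (95% interval -0.08 to 0.12). IRF9 fell from 8.15, 8.27 and 8.60 TPM to 5.49, 6.18 and 5.40 TPM (log2 fold change -0.63, SE 0.081, adjusted p = 5.23e-07). Unique reads made up 28.9% of the IRF9 and 54.7% of the IFNAR2 reads. The unique reads of IRF9 were 76, 103 and 91 in shCtrl and 59, 83 and 62 in shNFKBIZ libraries, so these unscaled counts overlapped. Those of IFNAR2 were 471, 465 and 418 against 380, 386 and 379 and did not overlap. Of the 5 interferons in the list, IFNB1, IFNA1 and IFNL1 had 0 reads in all libraries, which allows up to 0.622, 0.594 and 0.673 TPM. IFNE was detected, with 32, 21 and 26 reads in shCtrl and 25, 44 and 42 in shNFKBIZ libraries. It was not called (log2 fold change 0.47, edgeR adjusted p = 0.108). IFNK had 6, 2 and 2 reads against 0, 0 and 2 and was not tested.

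The 6 pathway genes past the threshold came from 3 groups. IFIH1, DHX58 and STING1 act in the sensing of RNA and DNA and fell by 1.62, 1.22 and 1.42 on the log2 scale. DHX58, a regulator of RNA sensing, was at 4.29, 5.61 and 5.35 TPM against 2.55, 2.05 and 2.33 TPM, and STING1, the adaptor for DNA sensing, at 26.95, 28.1 and 27.1 TPM against 10.1, 11.996 and 10.4 TPM. IFIH1, the RNA sensor MDA5, was at 8.99, 8.07 and 8.53 TPM in shCtrl and at 3.01, 3.46 and 2.35 TPM in shNFKBIZ cells. IRF7, the factor that drives interferon-α genes, was at 15.3, 17.6 and 17.7 TPM against 7.06, 6.66 and 6.24 TPM (log2 fold change -1.42, SE 0.103, adjusted p = 6.07e-11). IRF2, which can repress interferon-stimulated genes, was at 11.1, 11.9 and 11.7 TPM against 5.92, 5.77 and 6.402 TPM. Its change of -1.02 on the log2 scale was under 2-fold with library size alone (-0.93), without the second shCtrl (-0.99) or without the second shNFKBIZ library (-0.97). SOCS3, an inhibitor of cytokine receptors, had the largest fall, from 129, 136 and 140 TPM to 34.7, 35.3 and 32.9 TPM (log2 fold change -2.06, SE 0.0482, adjusted p = 2.87e-19). SOCS1, which inhibits the interferon receptor kinases, was not called (-0.88), and it was past the threshold without the second shNFKBIZ library (-1.71).

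**Figure D4:**
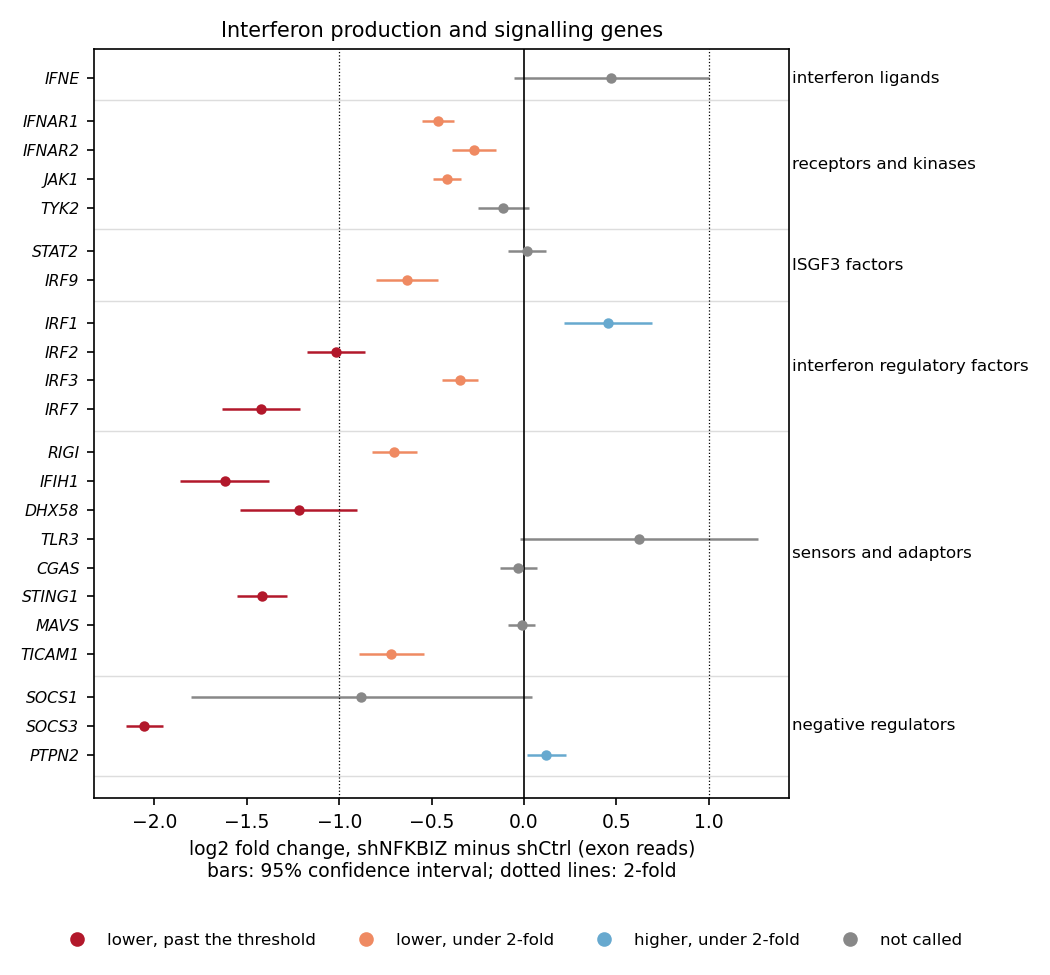
Log2 fold change (shNFKBIZ minus shCtrl, exon reads) of 22 tested interferon production and signaling genes by group; points are edgeR estimates and bars 95% confidence intervals. SOCS3 (-2.06), IFIH1 (-1.62), IRF7 and STING1 (both -1.42) are the lowest, while STAT2 (0.02) lies near 0.

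Finally, the promoter matches were set beside the changes. An ISRE match was found in the windows of 30 of the 41 members with a window, while 4.38% of all 27305 genes with a RefSeq window have one (3.57% of the windows). A GAS match was found for 12 members (9.38% of all genes) and a match to the NF-κB site for 7 of 41, near the 13.3% of all genes. Of the members past the threshold, 12 had a window and 9 of these an ISRE match. Of the other tested members, 21 had a window and 16 of these an ISRE match. The 25 tested members with an ISRE match ran from -2.86 (IFIT1) to 0.55 (IFI44L), with a median of -0.80. The 8 without one ran from -2.74 (OAS1) to 0.12 (ADAR), with a median of -0.66. HERC5 has 3 ISRE matches and IFI44 and DDX60L also carry the motif, and none of these 3 genes was called. A match is a description of the letters in the window, and the annotated start need not be the start used in these cells.

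**Figure D5:**
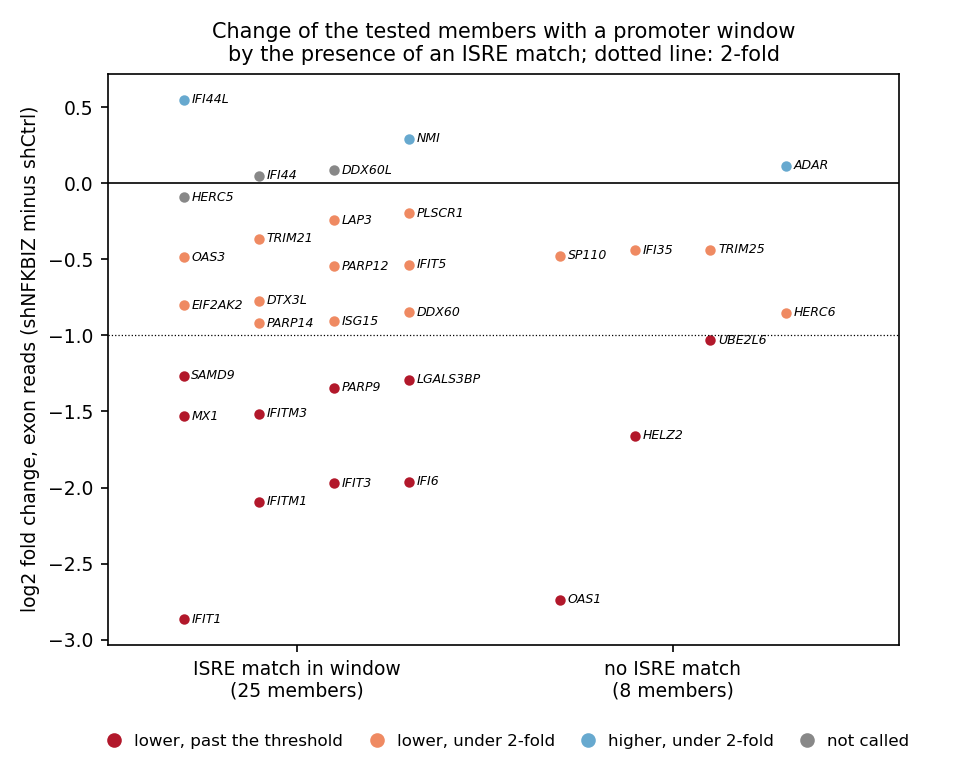
Log2 fold change (shNFKBIZ minus shCtrl, exon reads) of the 33 tested members with a RefSeq promoter window, divided by whether the window holds an ISRE match; each point is a gene. Both columns span large falls and values near 0, with IFIT1 (-2.86) and IFI44L (0.55) among the 25 members with a match and OAS1 (-2.74) and ADAR (0.12) among the 8 without.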

How the data were processed

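Per the study's methods, the authors used CLC Genomics Workbench with default settings (at most 10 hits per read), the hg38 genome and Ensembl genes, and deposited whole-number counts of exon and intron reads per gene. Strand was not used, so overlapping genes share reads. The labels and the methods disagree on the sequencing provider, which is left out here. TPM was computed anew from the counts and exon lengths, since the deposited column has decimal commas.

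Exon counts were filtered with filterByExpr, scaled with TMM and tested with glmQLFit (robust) and glmQLFTest of edgeR 4.0.16 in R 4.3.3. Tests were two-sided and p-values were adjusted over all genes tested (Benjamini-Hochberg). The standard error was the size of the log2 fold change over the square root of F. Intron counts were fitted apart, and exon and intron changes were compared as an interaction with library blocks. The threshold was an adjusted p of at most 0.05 and at least 2-fold. The scripts were tested on simulated data. Depth was 22264473 to 24624839 exon reads. Exact intervals cover counting error only, and p-values the spread between these libraries.

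The members, lists and tests were chosen with earlier results of these data known. By rule, values in each library are given for NFKBIZ, for tested members of the OAS, IFIT, IFITM, PARP and SAMD9 families, for up to 8 other members past the threshold, and for set pathway genes with any others past the threshold. A pathway gene and a promoter stretch that this rule names are not reported here. Other genes with values, such as ISG15, HERC5, HERC6, EIF2AK2, IFI44, IFI44L, NMI, ADAR, SOCS1, IFNE and IFNK, were picked after their values were seen. Promoter windows and sequences are from RefSeq (GRCh38.p14), and stretches inside exons were found with GENCODE. Alternatives were RLE factors, library size alone, other filters, DESeq2 1.42.0, unique reads or total gene reads, a replicate block, other thresholds and leaving out each library.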

Additional observations from a re-analysis of the deposited data

How the results depend on the processing

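NFKBIZ, the tested members of the 5 families and the 7 other members past the threshold had the same direction under each alternative run for them. For pathway genes near 0, directions are given here across scalings only, where CGAS (-0.03) and MAVS (-0.01), neither called, were at 0.06 and 0.08 with library size alone. The number of members past the threshold and lower in exon reads (17) was 15 with library size alone, 14 with 10 counts in every library, 16 with unique or with total gene reads, 17 with RLE factors, no filter or DESeq2, and 16 to 18 without 1 library. With no fold change limit 34 members were called lower and 3 higher, 9039 genes in all and 16 pathway genes. Requiring also a difference in mean TPM above 4, after the filter of the study, left 9 members and 555 genes, because members with low levels then drop out. In introns, 3 members were past the threshold, 8 with no filter, 12 with no fold change limit and 3 to 5 without 1 library. The exon and intron changes differed for 1 member, 4 with no fold change limit and 0 to 1 without 1 library. The pathway count (6) was 5 to 6, that of all genes (1241) 1315 to 1361, that of members higher 0 and NFKBIZ between -1.83 and -1.72 without 1 library.

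Same-numbered libraries of both groups correlated by 0.021, 0.056 and 0.029 in their deviations. The highest correlation of each shCtrl library with a shNFKBIZ library of another number was -0.00091, -0.028 and 0.011. Values this small from 3 libraries per group cannot decide whether the numbers pair the samples, and the main fit used no replicate block. With the replicate block, 17 members were lower in exon reads, 3 in intron reads, and 1244 genes were past the threshold in all, and NFKBIZ changed by -1.78.

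Depth limits the members below about 10 reads per library and nearly all intron comparisons of the OAS, IFIT and IFITM families. All values rest on 1 hairpin and 1 cell line, so effects of that hairpin on other transcripts cannot be told apart from those on NFKBIZ.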

Other observations

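LIPA, the lysosomal acid lipase gene whose bounds enclose IFIT1, IFIT2 and IFIT3 on the other strand, had 105, 100 and 108 intron reads in shCtrl and 54, 67 and 54 in shNFKBIZ libraries. Its log2 fold change in introns was -0.93 (edgeR adjusted p = 1.35e-06), against -0.22 in exons (edgeR adjusted p = 0.00215). The counting did not use strand, and the part of IFIT transcripts in these intron reads was not tested.

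Across the 41 tested members, the shCtrl level in TPM and the log2 fold change had a Spearman correlation of 0.237, where that across all 13843 genes tested was -0.174. The points share the same 6 libraries, and low genes have the larger error. The fold change is also taken against the same shCtrl level, and a low gene can pass the filter through its shCtrl reads alone. The correlation is therefore a description and was not tested.

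A pair of interferon regulatory factors differed between exon and intron reads in opposite directions. IRF1, an activator of interferon-stimulated genes, was higher in exon reads (log2 fold change 0.46) and -1.11 in intron reads without a call there, a difference of 1.599 (standard error 0.422, edgeR adjusted p = 0.00271), which ran from 1.13 to 2.34 without 1 library and was 1.32 and not called without the second shCtrl library. Its intron change was past the threshold without the third shCtrl (-1.36) or the second shNFKBIZ library (-1.93) and was -0.60 without the third shNFKBIZ library. IRF2, which can repress them, had a difference of -1.02 (standard error 0.178, edgeR adjusted p = 2.07e-06), which was under 1 in size without the first shCtrl (-0.90), the first shNFKBIZ (-0.94) or the second shNFKBIZ library (-0.97). Of all 11025 genes tested, 2.67% had a difference past the threshold. Strand was not used in the counting, and genes that overlap IRF1 or IRF2 were not examined. Both genes were picked after their values were seen.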
